A study of Homo sapiens with 4 samples.

Results

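The transcripts described here are those of the signal transducers STAT3, STAT5A, STAT5B and STAT6 and of their feedback genes SOCS1, SOCS2, SOCS3, CISH and PIM1. Every probe set that the platform annotation assigns to 1 of these 9 genes and to no other gene was taken, which gave 27 of the 54613 probe sets measured. The arrays compared KM-H2 cells transduced with a hairpin vector against the CIITA-BX648577 fusion transcript (knockdown, 2 arrays) with KM-H2 cells given a non-silencing control (2 arrays). KM-H2 is an established Hodgkin lymphoma line, labelled as cells of a pleural effusion and cultured under standard conditions, and all 4 samples are labelled as transduced cells. A single hairpin in a single line was studied, and no age, time point or dose is labelled. No label says whether replicates came from separate cultures, so the p-values below measure only the spread between these samples, which may be technical.

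Cytokine receptors activate JAK kinases, which phosphorylate STAT proteins, and the phosphorylated STAT dimers enter the nucleus and switch on target genes. Among those targets are the SOCS genes and CISH, whose proteins bind receptors or JAKs and dampen the signal, and PIM1, a survival kinase. The Reed-Sternberg cells of classical Hodgkin lymphoma are known for constant STAT activity and for frequent lesions of SOCS1. Arrays of RNA do not read phosphorylation, so the values below are transcript levels only.

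The hairpin is shown because it is the only perturbation in the study. The 3′ arm of its stem, which in this vector design supplies the guide strand, reads as follows, in lower case throughout because no part is singled out.
hairpin 3′ arm: tatttgatagtgaggtggctgtc
Promoter windows are shown because STAT dimers bind the palindromes TTCNNNGAA and, for STAT6, TTCNNNNGAA, and the feedback genes are their textbook targets. The windows are RefSeq sequences of build GRCh38.p14, from 250 bases before to 50 bases after a transcript start, and 8 of the 9 genes matched, with 11 windows (SOCS2 did not). Both palindromes read the same on either strand, capitals mark the matches, and no match of 1 motif overlapped one of the other in these windows.
CISH, chr3:50611725-50612024, minus strand: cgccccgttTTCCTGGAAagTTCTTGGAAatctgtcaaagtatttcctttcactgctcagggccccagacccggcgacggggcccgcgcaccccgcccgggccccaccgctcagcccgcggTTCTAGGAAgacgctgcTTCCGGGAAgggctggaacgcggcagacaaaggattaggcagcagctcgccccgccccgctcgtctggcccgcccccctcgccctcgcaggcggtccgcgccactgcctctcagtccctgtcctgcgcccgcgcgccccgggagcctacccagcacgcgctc
STAT5A, first of 3 windows, chr17:42287189-42287488, plus strand: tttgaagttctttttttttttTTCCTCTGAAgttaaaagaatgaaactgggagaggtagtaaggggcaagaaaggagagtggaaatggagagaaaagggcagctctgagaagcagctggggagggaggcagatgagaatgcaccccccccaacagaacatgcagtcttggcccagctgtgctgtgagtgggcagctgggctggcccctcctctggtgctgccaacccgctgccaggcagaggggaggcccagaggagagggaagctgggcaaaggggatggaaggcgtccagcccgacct
SOCS1, chr16:11256155-11256454, minus strand: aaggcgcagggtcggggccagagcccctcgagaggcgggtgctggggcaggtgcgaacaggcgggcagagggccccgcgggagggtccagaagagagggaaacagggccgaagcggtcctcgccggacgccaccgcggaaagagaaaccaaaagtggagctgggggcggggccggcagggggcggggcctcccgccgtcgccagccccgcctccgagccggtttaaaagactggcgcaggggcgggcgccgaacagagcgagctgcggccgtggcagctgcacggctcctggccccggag
The CISH window holds 4 copies of TTCNNNGAA, which begin 241, 230, 129 and 112 bases before the start. The first STAT5A window holds 1 copy of TTCNNNNGAA, which begins 229 bases before the start. The other 9 windows, those of SOCS1, SOCS3, PIM1, STAT3, STAT5B and STAT6 among them, hold neither motif, which says only that these letters are not in them. Of all 35116 windows, 7.66% hold TTCNNNGAA, 6.44% hold TTCNNNNGAA and 13.5% hold either, while 7 windows of 6 named genes, CISH and BCL6 among them, hold at least 4 copies of TTCNNNGAA. A match is a description of the sequence and not a bound site.

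Array means were 54.6 and 53.3 in knockdown and 54.2 and 53.7 in control. Array medians were lower in knockdown, at 8.37 and 8.12, than in control, at 9.17 and 9.28. The log2 intensities correlated at r = 0.987 between the knockdown arrays and at r = 0.980 between the control arrays, a description over probe sets that share the arrays. The probe set of PIERCE2, by general knowledge the gene called FLJ27352 in the name of the hairpin vector, read 621 and 590 in knockdown and 880 and 947 in control. Of the labelled cell's markers, TNFRSF8, which encodes CD30, read 134 and 115 in knockdown and 110 and 115 in control. FSCN1, an actin-bundling protein gene, was called lower at its brightest probe set by the limma fit whose prior variance follows intensity, at 507 and 500 in knockdown and 644 and 618 in control (adjusted p = 0.0170), and FUT4, of CD15 synthesis, was not called, at 102 and 105 in knockdown and 76.6 and 73.9 in control (adjusted p = 0.0518). In all, 8 of 10 Hodgkin and B cell markers lay above an intensity of 8.26, the filter value, on every array. Of 8 T cell markers, CD3D and CD7 lay above it. So did 0 of 4 NK cell, 3 of 6 myeloid and 4 of 6 fibroblast and epithelial markers, so passing this value is not particular to the labelled cell. The summed signal of the T cell probe sets was 287 to 329 in knockdown and about 245 in control, mostly from CD3D, at 253 and 225 in knockdown and 194 and 183 in control, with CD3E listed at 1 on an array of each group. Summed NK cell signal was 69.9 to 71.1 in knockdown and 64.7 to 71.8 in control, myeloid signal 156 to 162 in knockdown and about 168 in control, and fibroblast and epithelial signal 215 to 226 in knockdown and 269 to 278 in control. The part of these differences in the results below was not tested.

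None of the 9 genes changed past the test in either fit. In bulk RNA a lower share of cells with a transcript and less of it per cell cannot be told apart. Of the 27 probe sets, 22 passed a filter on dim signal, set at the median of all probe set means, an intensity of 8.26, and were compared on the scale log2(intensity + 16). With 1 prior variance for all probe sets (the common-prior fit in limma), 0 of 22 were called at an adjusted p of 0.05, where 0.00732% of all 27307 tested probe sets were called. With a prior variance that follows intensity (the intensity-trend fit), 0 of 22 were called as well, where 2.16% of all tested probe sets were. The PIERCE2 probe set, at a log2 fold change of -0.58, was called by the intensity-trend fit (adjusted p = 0.000141). The common-prior fit did not call it (adjusted p = 0.273), so a missing call in that fit does not show that a transcript was unchanged. At an unadjusted p below 0.05 the common-prior fit held 1 of the 22, against 13.3% of all tested probe sets, and the intensity-trend fit held 5, against 16.1%. An exact permutation test of 2 arrays against 2 cannot give a two-sided p below 0.333.

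**Figure D1:**
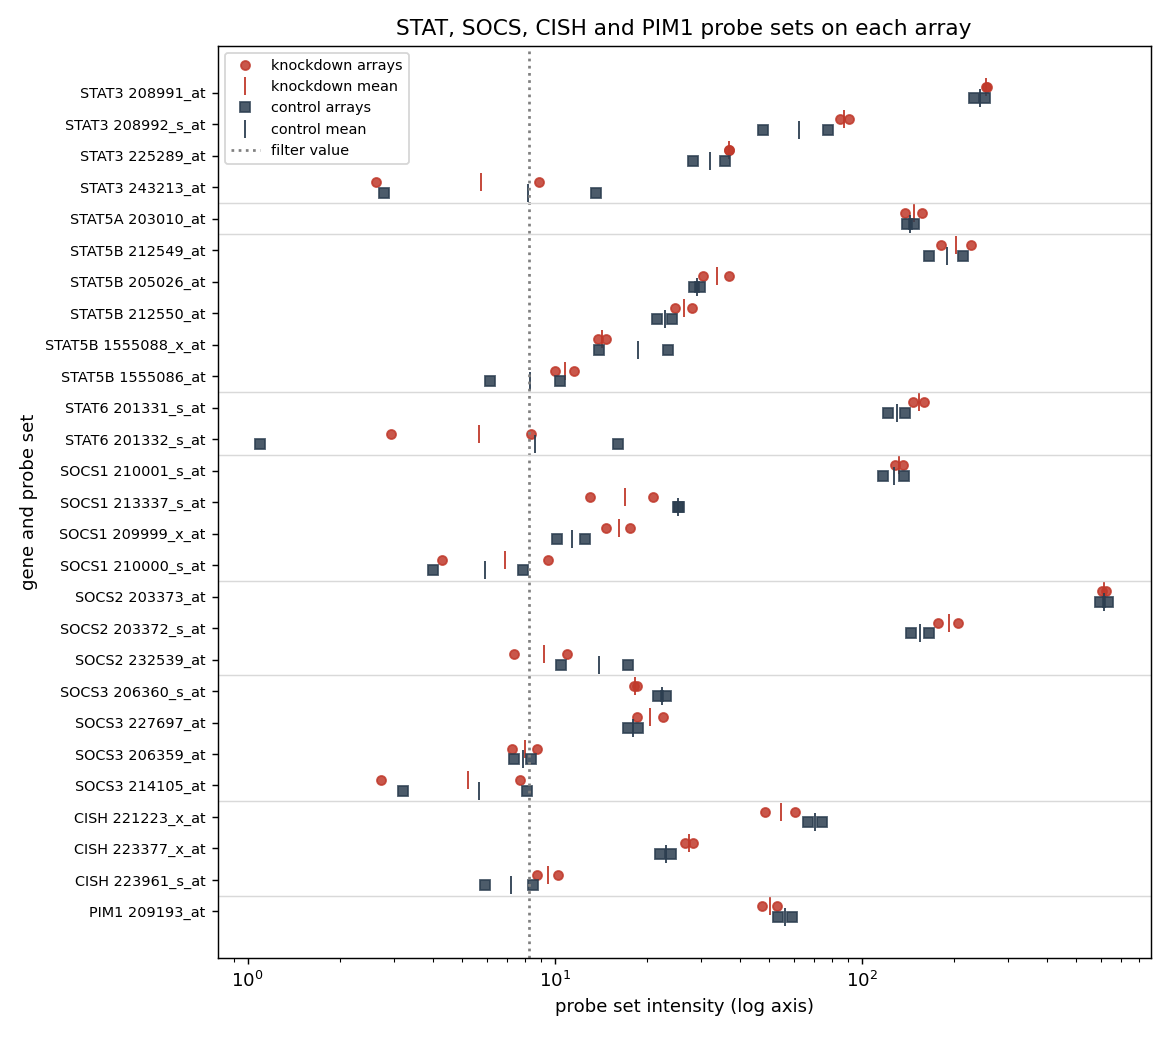
Intensity of each of the 27 probe sets on each array, on a log axis, with knockdown arrays as circles above control arrays as squares, group means as vertical ticks and the filter value as a dotted line. SOCS2 at 203373_at, the probe set furthest to the right, read 623 and 606 in knockdown and 598 and 634 in control, and 5 probe sets have means below the filter.

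STAT3 carries signals of the interleukin-6 and interleukin-10 families and is a survival factor in lymphoid cells. Its brightest probe set, 208991_at, read 253 and 256 in knockdown and 232 and 252 in control. Both knockdown arrays lay above both control arrays, but the gap to control replicate 2 was small. The group means were 254 ± 1.99 and 242 ± 13.8 (SD, n = 2 each), a log2 fold change of 0.07 with a 95% interval of -0.19 to 0.33. A second probe set, 208992_s_at, read 90.8 and 84.7 in knockdown and 47.7 and 77.6 in control. Its log2 fold change of 0.43 (SE 0.18) was the highest of the 22, and its interval ran from -0.001 to 0.85. The control arrays differed from each other by 0.56 on the same scale, which is more than the difference between the groups. Its adjusted p was 0.376 in the common-prior fit and 0.134 in the intensity-trend fit. Without control replicate 2 the value was 0.70 and the intensity-trend fit called it (adjusted p = 0.0119), and without control replicate 1 it was 0.15 (adjusted p = 0.542). Of the 4 arrays left out in turn, only the removal of control replicate 2 gave a call. The third tested probe set, 225289_at, read 36.9 and 36.9 in knockdown and 28.3 and 36.0 in control, again with control replicate 1 the lowest array.

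STAT5A and STAT5B are close relatives that transmit signals of interleukin-2, interleukin-7 and related cytokines, and they lie beside each other and beside STAT3 on chromosome 17, with 0 protein-coding genes between neighbours in the annotation. STAT5A had a single probe set, at 157 and 138 in knockdown and 148 and 140 in control. The groups overlapped, and the log2 fold change of 0.03 had a 95% interval of -0.24 to 0.30. STAT5B at its brightest probe set, 212549_at, read 226 and 181 in knockdown and 165 and 213 in control. The arrays of each group differed from each other by more than the group means did, and the log2 fold change was 0.10 (interval -0.27 to 0.47). The other 4 STAT5B probe sets had log2 fold changes from -0.18 to 0.15. At 1555088_x_at, the only one below 0, control replicate 2 stood apart at 23.4, beside 14.0 on control replicate 1 and 13.8 and 14.7 in knockdown.

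STAT6 is the factor of interleukin-4 and interleukin-13 signalling, cytokines to which Reed-Sternberg cells respond. It read 147 and 160 in knockdown and 139 and 122 in control at 201331_s_at. The groups did not overlap, and the log2 fold change of 0.21 (SE 0.12) was larger than the difference between replicates in either group. It did not pass, with adjusted p-values of 0.472 in the common-prior fit and 0.274 in the intensity-trend fit and a 95% interval of -0.06 to 0.49. The other STAT6 probe set lay below the filter, at 8.40 and 2.93 in knockdown and 1.10 and 16.1 in control.

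Of the 10 tested STAT probe sets 9 lay above 0, with a median log2 fold change of 0.13, where 49.2% of all tested probe sets lay above 0 at a median of -0.004. The count was 9 of 10 under median centring and quantile normalization too, 7 of 10 without knockdown replicate 1 and 9 of 12 with no filter. The STAT probe sets that the filter removed, STAT3 243213_at and STAT6 201332_s_at, gave -0.13 and -0.12, with overlapping groups. STAT3 243213_at read 2.61 and 8.89 in knockdown and 2.79 and 13.6 in control. The 10 tested probe sets read 4 genes on the same 4 arrays, so they are not independent, and none passed a fit.

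SOCS1 inhibits JAK kinases directly, and its gene is a neighbour of CIITA on chromosome 16, with 2 protein-coding genes, DEXI and CLEC16A, between them in the annotation. Its brightest probe set, 210001_s_at, read 128 and 136 in knockdown and 117 and 137 in control. The groups overlapped, and the log2 fold change was 0.05 (interval -0.23 to 0.33). The dimmer SOCS1 probe sets pointed in opposite directions. At 213337_s_at the knockdown arrays read 13.0 and 20.9 and the control arrays 25.3 and 25.1. This probe set had the largest absolute moderated t of the 22 in the common-prior fit, though not in the intensity-trend fit, with a log2 fold change of -0.33 (SE 0.14, common-prior adjusted p = 0.369, unadjusted 0.0464), while the knockdown arrays differed from each other by 0.35. At 209999_x_at the knockdown arrays read 17.7 and 14.7 and the control arrays 10.2 and 12.6, a log2 fold change of 0.23 (adjusted p = 0.431). The _x_at ending marks probes that can match other transcripts, so that level is uncertain. The tested probe sets of other genes nearest to 213337_s_at in their 4 centred log2 values were those of ARNT2-AS3, CC2D1B and THRA, at Euclidean distances of 0.035, 0.036 and 0.038 among 22617 candidates, all 3 dimmer than the SOCS1 probe set. With 4 arrays such likeness is only a description.

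SOCS2, best known as a brake on growth hormone signalling through STAT5, read 623 and 606 in knockdown and 598 and 634 in control at 203373_at. The knockdown arrays lay inside the control range. The means were 615 ± 11.5 and 616 ± 25.2 (SD, n = 2 each), a log2 fold change of -0.003 with a 95% interval of -0.26 to 0.25. The second probe set, 203372_s_at, read 206 and 178 in knockdown and 145 and 166 in control. Here both knockdown arrays were higher, by 0.28 on the log2 scale (SE 0.13, adjusted p = 0.396 in the common-prior fit and 0.148 in the intensity-trend fit), which exceeded the replicate differences of 0.20 in knockdown and 0.18 in control. The third, dim, probe set read 7.39 and 11.0 in knockdown and 17.4 and 10.5 in control. The 3 SOCS2 probe sets thus gave values close to 0, above it and below it, and none was called.

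SOCS3, the main inhibitor of signalling through the interleukin-6 receptor chain gp130, was dim throughout. Its brightest probe set, 206360_s_at, read 18.1 and 18.5 in knockdown and 21.7 and 23.1 in control. The groups did not overlap and the arrays within each group lay close together, with a log2 fold change of -0.16 (SE 0.11, common-prior adjusted p = 0.539). The other tested probe set, 227697_at, read 18.5 and 22.5 in knockdown and 18.7 and 17.3 in control, a log2 fold change of 0.10 in the other direction. The remaining 2 SOCS3 probe sets lay below the filter, with all values at 8.74 or less.

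CISH, which acts on STAT5 signalling and whose promoter window carries the 4 palindromes printed above, read 48.4 and 60.5 in knockdown and 74.0 and 66.6 in control at 221223_x_at. Both knockdown arrays lay below both control arrays. The means were 54.4 ± 8.58 and 70.3 ± 5.22 (SD, n = 2 each), a log2 fold change of -0.30 (SE 0.13) with an interval of -0.60 to 0.005 and adjusted p-values of 0.379 in the common-prior fit and 0.219 in the intensity-trend fit. The dimmer 223377_x_at read 28.3 and 26.7 in knockdown and 22.0 and 24.0 in control, and 223961_s_at read 8.76 and 10.2 in knockdown and 5.91 and 8.50 in control. On these both knockdown arrays were above the control arrays, with log2 fold changes of 0.16 and 0.14 (common-prior adjusted p = 0.558 and 0.637). CISH was therefore separated between the groups at all 3 probe sets, a separation that 46.1% of all tested probe sets had in either direction. It was downwards at the brightest and upwards at the others. Averaged over the CISH probe sets, the log2 fold change was -0.0004. At 223961_s_at the gap between the groups was small and the values lay near the filter. The other CISH probe sets end in _x_at, which marks probes that can match other transcripts, so those levels are uncertain.

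PIM1, a kinase gene induced by STAT3 and STAT5, had a single probe set, at 47.4 and 53.1 in knockdown and 53.3 and 59.1 in control. Knockdown replicate 2 and control replicate 1 were almost equal. The log2 fold change was -0.12 (SE 0.11, common-prior adjusted p = 0.668), with an interval of -0.39 to 0.14.

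**Figure D2:**
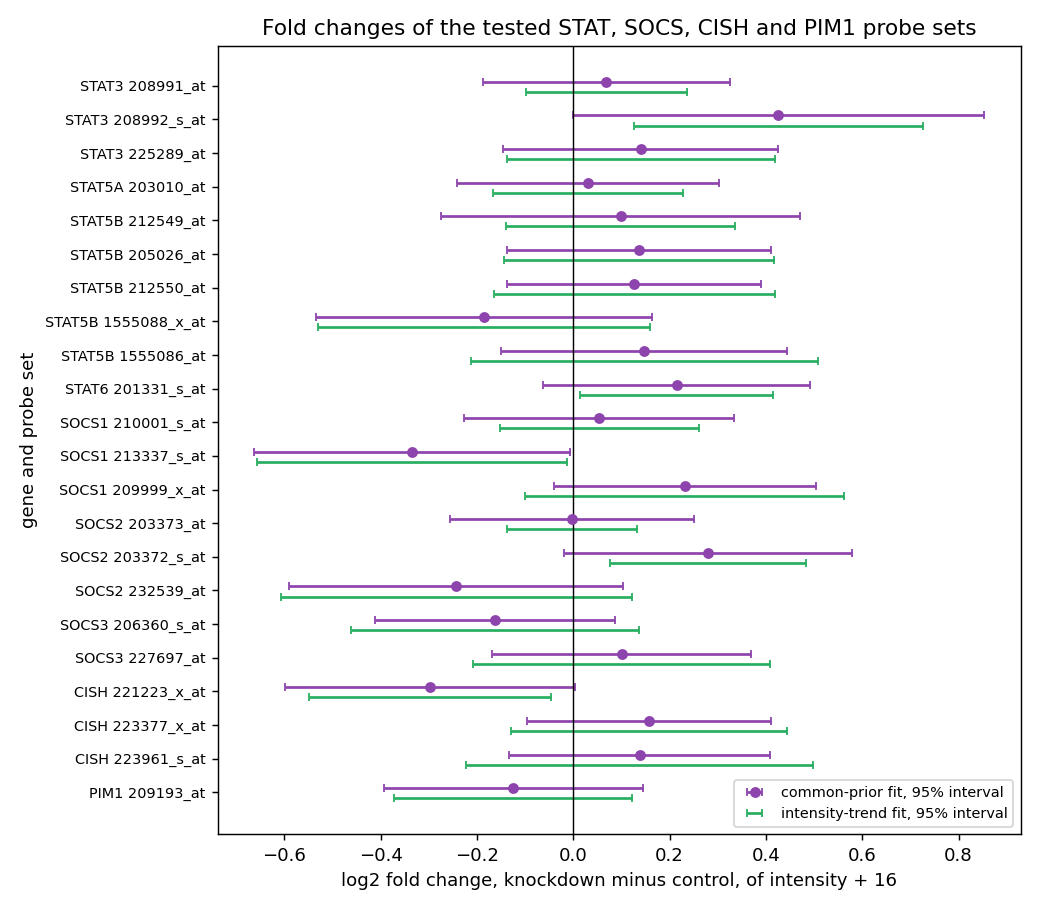
Log2 fold change, knockdown minus control, of the 22 tested probe sets, with 95% intervals of the common-prior fit (upper bar, with point) and the intensity-trend fit (lower bar). Point values run from -0.33 at SOCS1 213337_s_at to 0.43 at STAT3 208992_s_at, and no probe set passed the threshold after adjustment over all tested probe sets.

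Over the 22 tested probe sets the median log2 fold change was 0.10, with quartiles of -0.09 and 0.15, and the median of its absolute size was 0.14, beside 0.13 over all tested probe sets. Of the 22 values 15 lay above 0 (16 with median centring). Over the brightest probe set of each gene the count was 5 of 9 and the median 0.03. The arrays of the groups did not overlap at 14 of 22 (63.6%), against 46.1% of all tested probe sets, with 10 higher in knockdown, where 23.3% of all were, and 4 lower, where 22.8% were. The group difference exceeded both replicate differences at 8 of 22 (36.4%), against 33.2% of all tested probe sets. The median difference between replicates was 0.11 in knockdown and 0.12 in control, about the size of the group differences. Among the 95% intervals of the common-prior fit, the lowest bound was -0.66 and the highest 0.85.

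**Figure D3:**
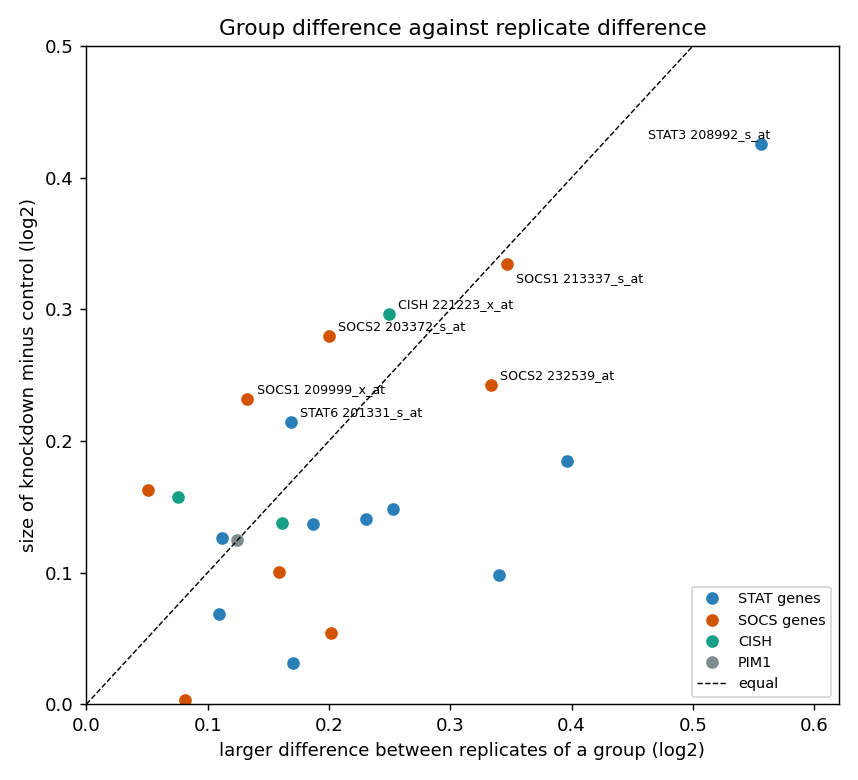
Absolute log2 fold change of each of the 22 tested probe sets (vertical axis) against the larger of its replicate differences within a group (horizontal axis), with a dashed line where they are equal. The 8 probe sets above the line include SOCS2 203372_s_at, CISH 221223_x_at and STAT6 201331_s_at, and STAT3 208992_s_at lies below it at 0.43 against 0.56.

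The probe sets of a gene often lay on both sides of 0, and how often this holds over all genes was not counted. Of the 6 genes with several tested probe sets, only STAT3 had all of them on the same side of 0, and STAT5B, SOCS1, SOCS2, SOCS3 and CISH had values on both sides. Of the 27 probe sets, 14 end in _at alone, 9 end in _s_at, which marks probes shared by transcripts of a family or of a gene, and 4 end in _x_at. The medians of the tested ones were 0.10, 0.14 and -0.01. Averaged over all probe sets of a gene, the log2 fold changes of the 9 genes lay between -0.12 (PIM1) and 0.13 (STAT3), and neither fit called any.

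The rest of the pathway was described from a list of 103 genes of JAK kinases, other STATs, other inhibitors and PIM kinases, receptor chains, ligands and STAT-responsive genes, 72 of which were tested at 132 probe sets. Its tested probe sets centred on a log2 fold change of 0.01 (median). The common-prior fit called 0 of the 132, with 25 at an unadjusted p below 0.05, against 13.3% of all tested probe sets. The intensity-trend fit called 8 (6.06%), against 2.16% of all tested probe sets, with 4 higher in knockdown, where 1.29% of all were, and 4 lower, where 0.872% were. The list was chosen with earlier results of these data known, so these shares describe it and do not test the pathway. With median centring the 8 became 14, of which 10 were higher and 4 lower. Of all 27307 tested probe sets, 738 were then called higher and 135 lower. Called genes were receptor chains and STAT-responsive genes, and 0 of 7 probe sets of JAK kinases, 0 of 1 of STAT4, 0 of 37 of the other inhibitors and PIM kinases and 0 of 10 of ligands were called.

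BATF, an AP-1 family factor that STAT3 is known to induce, read 774 and 698 in knockdown and 514 and 462 in control. Both knockdown arrays were well above the controls. The log2 fold change was 0.58. Its SE was 0.12 in the common-prior fit (adjusted p = 0.283) and 0.07 in the intensity-trend fit (adjusted p = 0.000489). The intensity-trend call held under the 13 alternatives that refitted the probe set itself, each array left out among them. In the fit of gene means, which called 23 of 11512 genes, no pathway gene was called. BATF had a single probe set, so its values were the same in that fit. CDKN1A, the gene of the cyclin-dependent kinase inhibitor p21, read 180 and 189 in knockdown and 136 and 139 in control (0.39, intensity-trend adjusted p = 0.0298). That call was lost whichever array was left out, with adjusted p-values from 0.0624 to 0.254.

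BCL2, the antiapoptotic gene, read 81.1 and 85.9 in knockdown and 122 and 149 in control at its brightest probe set, 203685_at. It fell by 0.60 on the log2 scale in the intensity-trend fit (adjusted p = 0.00680, and 0.283 in the common-prior fit), and without control replicate 2 the adjusted p was 0.0544. Its dimmer tested probe sets read 10.5 and 20.9 in knockdown against 11.7 and 13.4 in control, and 7.18 and 9.64 in knockdown against 6.37 and 24.7 in control, with overlapping groups. CCND3, a D-type cyclin gene, was called lower at a dim probe set, 1562028_at, with 13.2 and 9.48 in knockdown and 23.5 and 30.3 in control (log2 fold change -0.65, adjusted p = 0.0365). Its bright probe set read 73.2 and 67.2 in knockdown and 68.9 and 61.3 in control (0.09), and the dim call was lost with quantile normalization (adjusted p = 0.0586) and when replicate 2 of control or of knockdown was left out.

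Of the receptor chains, IL2RG and IL21R, which together form the interleukin-21 receptor, were called higher. IL2RG read 177 and 164 in knockdown and 104 and 123 in control, and its call held without each array in turn. IL21R read 265 and 274 in knockdown and 211 and 188 in control at 219971_at, with log2 fold changes of 0.25 and 0.35 at its other probe sets, and its call was lost without control replicate 2 or knockdown replicate 2. IL13RA1, a chain of the interleukin-13 receptor, was called lower at 201887_at, with 107 and 107 in knockdown and 146 and 171 in control, but not without control replicate 2. Its 3 dimmer probe sets did not all point that way, with log2 fold changes of -0.19, 0.15 and 0.22, none of them called. IL23R, of the interleukin-23 receptor, was called lower at 1552912_a_at, with 27.2 and 35.6 in knockdown and 51.6 and 55.9 in control. The IL23R call held only without knockdown replicate 2 among the 4 arrays left out, and its other tested probe set gave -0.08 with overlapping groups. With no filter on dim probe sets, the calls of IL2RG, IL21R, IL13RA1, IL23R, CDKN1A and CCND3 were lost.

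**Figure D4:**
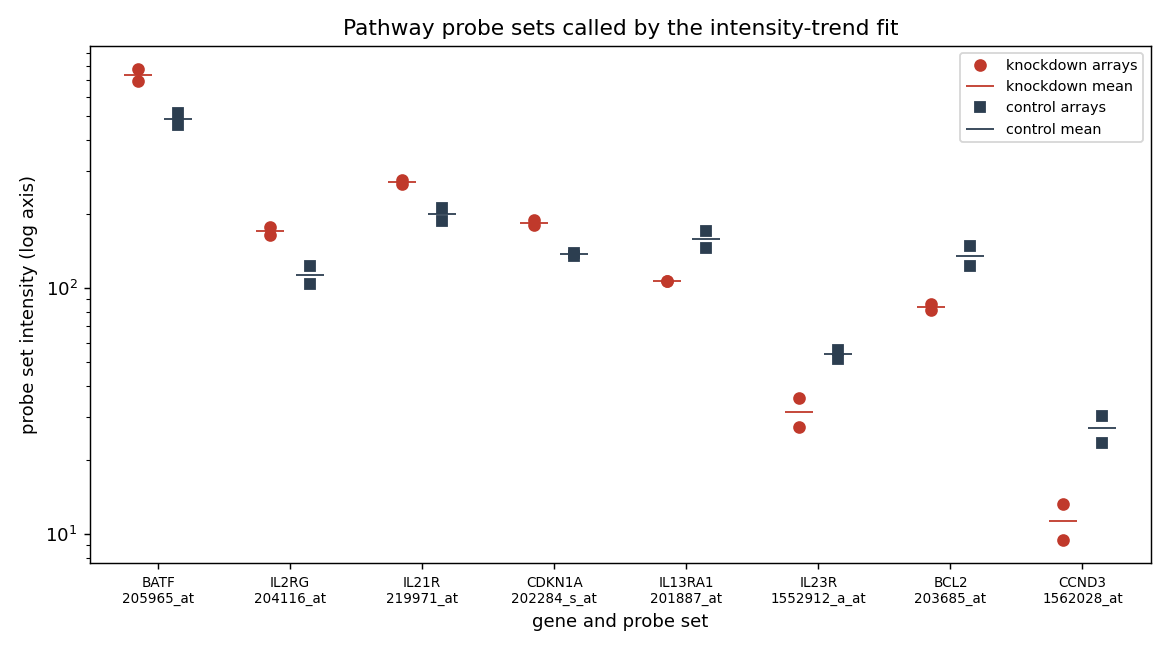
Intensity on each array, on a log axis, of the 8 pathway probe sets called by the intensity-trend fit, with knockdown arrays as circles left of control arrays as squares and group means as horizontal bars. BATF, IL2RG, IL21R and CDKN1A are higher in knockdown, and IL13RA1, IL23R, BCL2 and the dim CCND3 probe set are lower.

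The remaining genes named from the pathway list passed neither fit. JAK1, the kinase shared by most of these receptors, read 327 and 321 in knockdown and 360 and 411 in control at 201648_at (log2 fold change -0.24). At 2 dimmer probe sets it pointed the other way, with 134 and 160 in knockdown against 128 and 115 in control (0.25) and 83.9 and 91.7 in knockdown against 70.4 and 52.4 in control (0.43, intensity-trend adjusted p = 0.0736). TYK2, another JAK kinase, read 141 and 121 in knockdown and 131 and 101 in control. PIAS1, an inhibitor of STAT binding to DNA, had log2 fold changes from 0.02 to 0.42 over its 3 probe sets, and its relative PIAS2 from -0.47 to -0.03 over 6 tested ones. The ligand genes IFNG and IL23A gave -0.65 and 0.35 at dim probe sets, with values of 3.52 and 10.6 in knockdown against 15.6 and 24.5 in control for IFNG and 14.1 and 18.2 in knockdown against 9.14 and 9.07 in control for IL23A. STAT4 was dim, at 11.3 and 10.2 in knockdown and 16.5 and 12.6 in control.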

How the data were processed

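RNA of 4 KM-H2 samples was hybridised to single-colour oligonucleotide arrays after the 1-cycle biotin labelling named in the labels' protocols. Each deposited value is a probe set intensity on a linear scale. The step from scan to intensity taken by the authors was not given in the sources used here. They were used as deposited, as log2(intensity + 16). All 4 columns were used. The number of arrays, 2 per group, limits the precision. The platform annotation gave 1 gene for 41091 probe sets, several for 1801 and none for 11721, and 0 symbols needed an update by gene number. Groups came from the sample titles. The 27307 probe sets with a mean at or above the median of all were fitted with lmFit and eBayes of limma 3.58.1, run in R 4.3.3, with and without an intensity trend, and p-values were adjusted by Benjamini-Hochberg over all of them. Scripts were tested on simulated data. The members and gene lists were chosen with earlier results of these data known. Named genes are the members, PIERCE2, CIITA, listed genes past either fit and the 2 of largest moderated t in each part of the list, and the 3 probe sets nearest to the member of largest t. CIITA at its brightest probe set, 205101_at, read 57.1 ± 4.98 in knockdown and 62.4 ± 3.87 in control (SD, n = 2 each). The groups overlapped and it was not called (adjusted p = 0.735 in the common-prior fit and 0.737 in the intensity-trend fit). The other tested CIITA probe set, 210925_at, gave a log2 fold change of 0.03, also with overlapping groups. Alternatives were other pseudocounts (1 and 64), filters, scalings and thresholds, robust hyperparameters, gene-level summaries, a replicate block and leaving out each array.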

Additional observations from a re-analysis of the deposited data

How the results depend on the processing

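No tested STAT, SOCS, CISH or PIM1 probe set was called by the common-prior fit under any alternative run, and 17 of 22 kept their sign under all of them. The signs of STAT5A, SOCS2 203373_at, SOCS1 210001_s_at, and STAT5B 212549_at and 1555088_x_at changed under at least 1. The intensity-trend fit called 1 of the probe sets, STAT3 208992_s_at, with the replicate block (adjusted p = 0.0171), and between 0 and 1 with single arrays left out. Their median log2 fold change lay between 0.04 and 0.13 with arrays left out and was 0.011 when the probe sets of each gene were averaged. Over all probe sets the common-prior fit called 2, and 0 with a pseudocount of 1, 663 with 64, 0 with no filter, 62 with the filter at the 75th percentile, 0 at a threshold of 0.01, 1 with gene means, and 0 to 3 with arrays left out. The intensity-trend fit called 591 (353 higher, 238 lower, and 738 and 135 with median centring), and 101 with no filter, 952 with the stricter filter, 387 with the brightest probe set per gene, 1462 with the replicate block, 138 and 1127 at thresholds of 0.01 and 0.10, 23 with gene means, and 195 to 563 with arrays left out. For the pathway list the 8 calls became 14 with median centring, 2 with no filter, 13 with the stricter filter, 18 with the replicate block, 3 and 14 at thresholds of 0.01 and 0.10, 0 with gene means, and 2 to 11 with arrays left out. The cause of these shifts was not tested. Over all tested probe sets, the deviations of knockdown replicate 1 and control replicate 1 from their group means correlated at r = -0.01. A single correlation over all probe sets cannot show whether some of them share a deviation. The replicate numbers were not taken to pair the samples in the main fits, and the replicate block is given as an alternative. The intervals given are not adjusted for the number of probe sets, so they are not limits of detection. In the common-prior fit the interval of SOCS1 213337_s_at ran from -0.66 to -0.007 and that of PIERCE2 from -0.84 to -0.32. Both left out 0, and that fit called neither (adjusted p = 0.369 and 0.273). With 2 arrays a group, a missing call does not show that a transcript was unchanged.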
